A study of Mus musculus with 6 samples.

Results

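Messenger RNA of 7 genes that make, break down or sense retinoic acid was measured in mouse immature dendritic cells after hydrogen peroxide (H2O2). They were Rdh10 and Aldh1a2 for synthesis, Cyp26b1 for breakdown, and the receptor genes Rara, Rarg, Rxra and Rxrb. They were taken by matching NCBI Gene numbers to symbols, and all 7 members had a row among the 17567 genes of the count files. Cyp26b1 was chosen for its rise after H2O2, and the other 6 as its partners in the pathway, so this member was selected on its treatment values, which are a description without a test. The H2O2 group was immature dendritic cells given 100 µM H2O2 for 24 h, and the control group was the same kind of cell labelled as control. All cells came from bone marrow of male C57BL/6 mice, 6 weeks old, grown in 10% serum with the cytokines GM-CSF (20 ng/mL) and interleukin-4 (10 ng/mL), taken at day 6 and purified on CD11c beads. GM-CSF and interleukin-4 were therefore shared by both groups, and the labels do not tell whether each sample is its own mouse or culture. The p-values therefore measure only how far these samples spread, which may be technical variation.

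Retinol is oxidized to retinal, in which RDH10 takes part, and retinal is oxidized irreversibly to retinoic acid by the ALDH1A enzymes. CYP26 enzymes hydroxylate retinoic acid and so end its action. Retinoic acid binds RAR proteins, which sit on DNA as pairs with RXR proteins, and RXR also pairs with other nuclear receptors. In the mouse, dendritic cells of the gut make retinoic acid through ALDH1A2 and with it imprint gut homing on T cells, and GM-CSF and interleukin-4 are known inducers of Aldh1a2 in cultured marrow dendritic cells.

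The labels give 3 samples per group, but the deposited values of H2O2 replicate 3 equalled those of H2O2 replicate 1 in all 17567 genes, and both were counted as 1 library. Of the 5 distinct libraries, H2O2 replicate 1 and control replicate 1 carried Y-linked transcripts (96.4 and 106 CPM, summed over 4 genes; CPM are counts scaled to a common library size) and are called set A. The other libraries, H2O2 replicate 2 and control replicates 2 and 3, held between 0.120 and 0.427 CPM and are called set B, although all mice were labelled male. What else differed between the sets is not given in the sources used here. Library totals lay between 16232604 and 16672491 estimated counts. Itgax, the gene of CD11c, stood at 1496 and 2177 CPM in H2O2 libraries and between 1473 and 2154 CPM in controls, while the dendritic cell marker Cd209a did not pass 0.363 CPM in any library.

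Sequences from the 250-base windows before start sites of 3 of the genes are shown. They were picked because Cyp26b1 had the largest response, and Cyp26b1, Aldh1a2 and Rara the largest differences between the sets. RefSeq (GRCm38.p6) gave 12 start sites for 6 of the 7 members. Rdh10 was not among them. Capitals mark matches, on either strand, to TATAAA, to TGACNNNGC (the core of the antioxidant response element) or to a retinoic acid half-site (AGGTCA, or its variant AGTTCA, or with another first base GGGTCA, or the like variant GGTTCA). The first sequence is the 152 bases upstream of the Cyp26b1 gene (chr6:84593909-84594060, minus strand), the second the 250 bases before Aldh1a2 (chr9:71215539-71215788, plus strand). The other 98 bases of the Cyp26b1 window, next to its listed start site, lie in exons and are not shown. The third is the 250 bases before an internal start site of Rara (chr11:98939461-98939710, plus strand), which lies between annotated exons.
Cyp26b1: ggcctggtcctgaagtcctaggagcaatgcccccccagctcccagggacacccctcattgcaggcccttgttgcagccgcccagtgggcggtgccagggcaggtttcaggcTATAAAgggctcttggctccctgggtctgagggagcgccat
Aldh1a2: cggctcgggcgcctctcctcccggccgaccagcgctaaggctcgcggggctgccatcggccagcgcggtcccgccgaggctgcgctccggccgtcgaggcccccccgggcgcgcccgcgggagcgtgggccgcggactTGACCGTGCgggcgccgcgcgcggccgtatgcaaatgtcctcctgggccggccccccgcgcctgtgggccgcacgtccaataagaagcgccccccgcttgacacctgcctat
Rara: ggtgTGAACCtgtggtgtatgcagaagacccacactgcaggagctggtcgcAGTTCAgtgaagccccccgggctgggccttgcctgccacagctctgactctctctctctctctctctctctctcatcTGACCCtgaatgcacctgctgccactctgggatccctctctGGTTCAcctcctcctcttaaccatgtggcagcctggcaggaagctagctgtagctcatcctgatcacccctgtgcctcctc
The Cyp26b1 sequence held a TATAAA that began 41 bases before the annotated edge of the gene, at -139 from the listed start site. This motif was found in 12.4% of the 32851 mouse windows of 250 bases. The Aldh1a2 sequence held 1 TGACNNNGC, found in 10.2% of windows, and the Rara sequence 4 single half-sites, at least 1 of which stood in 38.6% of windows. This Rara window is shown because it alone of the 4 Rara windows held a match. Among the other windows, 1 of Rarg held 1 half-site and 1 of Rxra held 3. Pairs of half-sites on 1 strand, spaced by 5 bases (0.0883% of all windows) or by 2 bases (0.174%), did not occur in any of the 12 windows. A match is a run of letters only, and these windows do not cover distant sites.

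Cyp26b1, which encodes the enzyme that hydroxylates retinoic acid, was higher after H2O2 in both sets (chromosome 6, 84571414 to 84593908, GRCm38.p6). Its levels were 5.38 CPM in H2O2 replicate 1 and 56.0 CPM in H2O2 replicate 2, against 2.38, 15.2 and 12.0 CPM in control replicates 1, 2 and 3. The groups overlapped, because the H2O2 library of set A lay below both controls of set B, but each H2O2 library lay above every control of its own set. In set A the level with H2O2 was 2.26 times the control level, from 91 against 41 counts, with a 95% counting interval of 1.55 to 3.35. In set B the ratio was 4.11 to the mean of the controls (865 against 252 and 197 counts), and 3.68 and 4.66 to each control. The counting interval of the pooled ratio in set B was 3.66 to 4.62. Such a position, above every control of its own set in both sets, was taken by 28.5% of all tested genes, and nothing is read from it for a gene chosen by its rise. The fit over both sets gave a log2 change of 1.83 ± 0.20 (SE, 5 libraries) or 3.56-fold. Without H2O2 replicate 2 that value was 1.17, and without H2O2 replicate 1 it was 2.04.

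The responses of Cyp26b1 in the sets differed by -0.87 ± 0.34 on the log2 scale, set A minus set B, again a description without a test. None of the other 6 members passed edgeR's test of that interaction (1 residual degree of freedom), which called 0.0164% of all genes (2 of 12209), while 13.7% of genes had an unadjusted p under 0.05. Counting intervals cover counting error only, and in bulk RNA a larger share of cells that express a gene and more RNA per cell cannot be told apart.

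**Figure D1:**
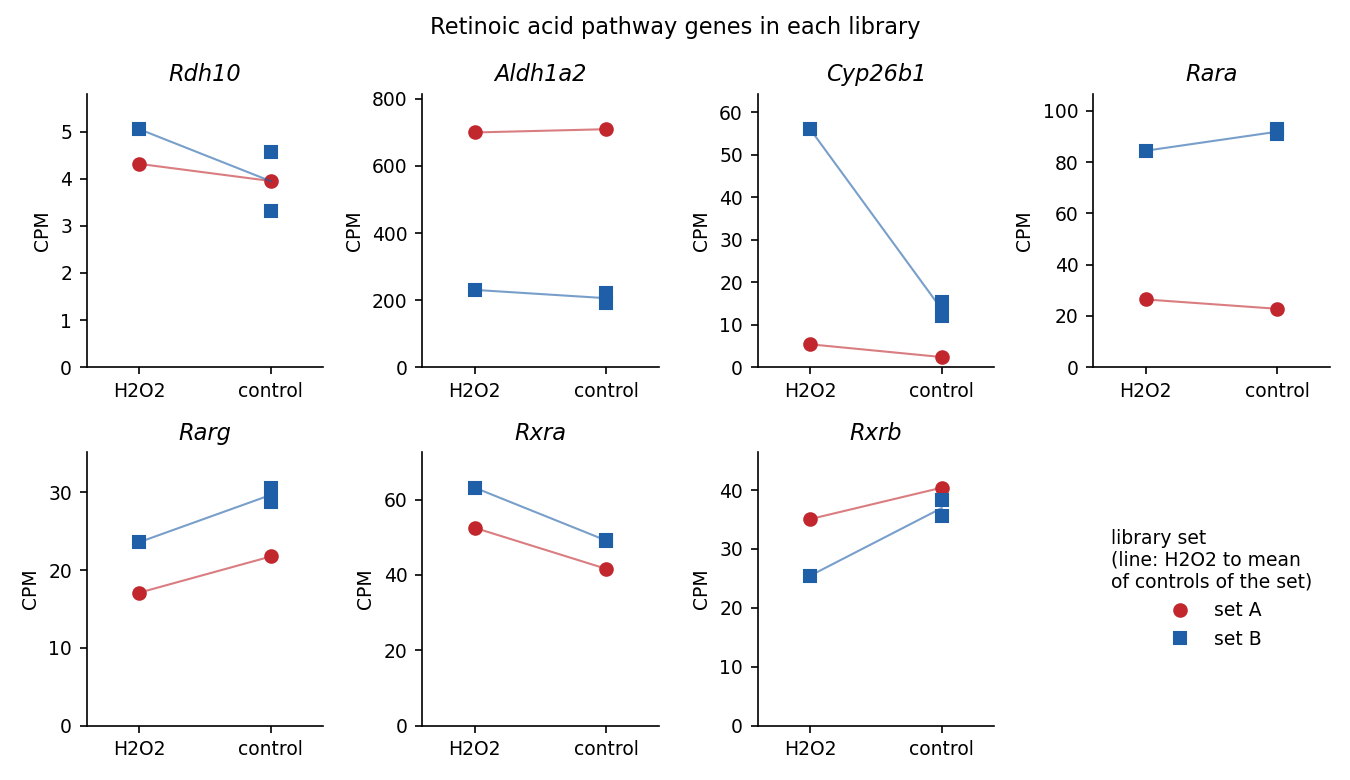
Level of each gene in CPM (axes from 0) in the H2O2 libraries and the control libraries, set A as circles and set B as squares; each line joins the H2O2 library of a set to the mean of its controls. Cyp26b1 stood at 56.0 CPM in H2O2 replicate 2, against 15.2 and 12.0 CPM in its controls, and in set A at 5.38 against 2.38 CPM. Aldh1a2 and Rara parted the sets far more than the groups. The fitted set difference of Cyp26b1 was also larger than its change with H2O2.

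The synthesis genes showed no change with H2O2 that passed the test. Rdh10, a retinol dehydrogenase of the first step, was scarce, at 4.32 and 5.05 CPM with H2O2 and 3.95, 3.32 and 4.57 CPM in controls (chromosome 1, 16105882 to 16132550). The groups overlapped, since control replicate 3 lay above H2O2 replicate 1, and the log2 change was 0.26 ± 0.20 (adjusted p = 0.452, edgeR). With between 55 and 78 counts per library, the counting intervals of the H2O2 to control ratio were 0.774 to 1.54 (set A) and 0.954 to 1.71 (set B), both of which hold a ratio of 1 and cover counting error only.

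Aldh1a2, the retinal dehydrogenase of dendritic cells, was by far the most abundant of the 7 genes (chromosome 9, 71215789 to 71296243). It stood at 699.7 and 230.4 CPM in H2O2 replicates 1 and 2, against 709.5, 219.8 and 191.6 CPM in control replicates 1, 2 and 3. In set A the H2O2 library was 0.986 times its control, and in set B 1.05 and 1.20 times its controls. The log2 change was 0.08 ± 0.09 (adjusted p = 0.578, edgeR). Its level parted the sets and not the groups.

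Of the 4 receptor genes, Rxra rose and none fell at an adjusted p of at most 0.05. Among all genes 3.93% were called higher and 4.61% lower (8.54% in either direction), against 1 call among the 6 members other than Cyp26b1. Without the set term no gene was called, a share of 0%, and 6.99% had an unadjusted p under 0.05 (edgeR). Rxra encodes an RXR protein, the common partner of the RARs (chromosome 2, 27676445 to 27763319). Its levels were 52.5 and 63.2 CPM with H2O2, against 41.6, 49.3 and 49.0 CPM in controls. Both H2O2 libraries lay above all 3 controls, and its ratio to control was 1.26 (set A) and 1.29 (set B). The log2 change was 0.35 ± 0.07, or 1.28-fold (adjusted p = 0.0322, edgeR with the set term). The call was lost under 7 of 11 alternatives, where the adjusted p lay between 0.0619 and 0.706, including the fits without H2O2 replicate 2 (0.163), control replicate 2 (0.0854) or control replicate 3 (0.141).

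Rxrb, which encodes another RXR protein, had values on the other side of its controls (chromosome 17, 34031812 to 34038403). It stood at 35.1 and 25.5 CPM with H2O2, against 40.4, 35.6 and 38.3 CPM in controls, so that both H2O2 libraries lay below all 3 controls. Its ratio to control was 0.868 (set A) and 0.689 (set B). The log2 change of -0.39 ± 0.10 did not pass (adjusted p = 0.0683, edgeR). It passed without control replicate 1 (-0.54, adjusted p = 0.0104) and without H2O2 replicate 1 (-0.53, adjusted p = 0.0253), fits in which set B alone holds the treatment contrast. Rxra and Rxrb were the only 2 members whose groups did not overlap, a separation seen in 23.7% of all tested genes (13% with H2O2 above and 10.7% with H2O2 below). Per kilobase of exon, the Rxra level was 1.09 and 1.80 times that of Rxrb in the H2O2 libraries, and 0.749, 1.01 and 0.930 times in the control libraries.

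Rarg, a retinoic acid receptor gene, stood at 17.1 and 23.6 CPM with H2O2, against 21.7, 30.6 and 28.7 CPM in controls (chromosome 15, 102234938 to 102257522). Each H2O2 library lay below the controls of its own set, with ratios of 0.786 (set A) and 0.795 (set B), while the groups overlapped. Of all tested genes, 28% lay below every control of their own set in both sets. The log2 change of -0.34 ± 0.09 did not pass (adjusted p = 0.0725, edgeR). Rara, the other retinoic acid receptor gene among the members, stood at 26.4 and 84.5 CPM with H2O2, against 22.8, 92.9 and 90.9 CPM in controls (chromosome 11, 98927800 to 98974942). The ratio was 1.16 in set A, and 0.909 and 0.929 to the controls of set B. Such opposite directions, which Aldh1a2 shares, occurred in 26.7% of all tested genes. They gave a log2 change of 0.0041 ± 0.094 (adjusted p = 0.983, edgeR), a value that turned negative with the DESeq2 scaling (-0.0063).

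**Figure D2:**
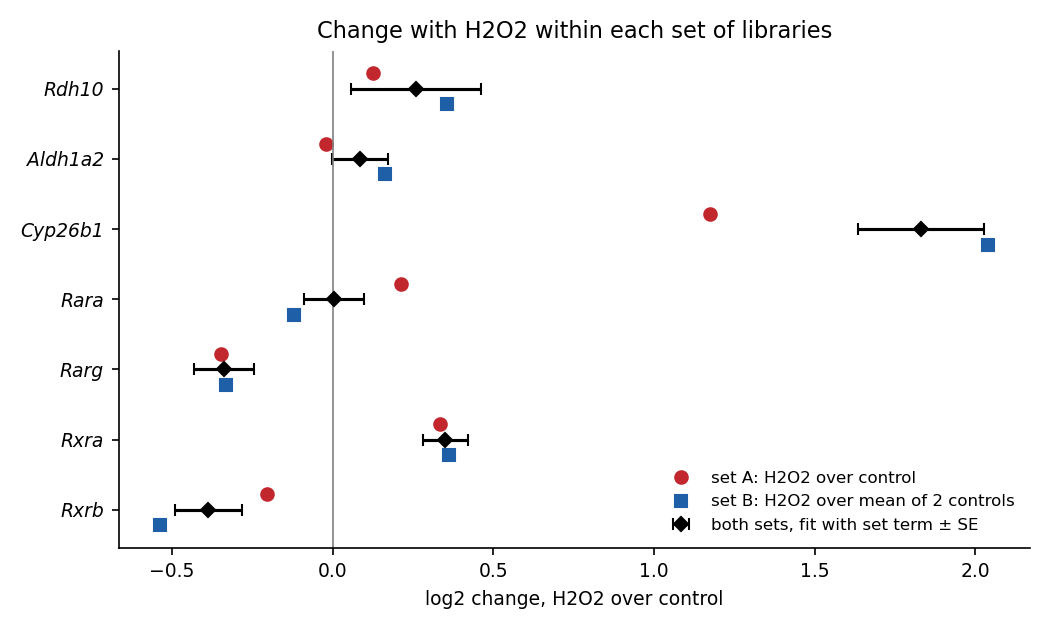
Log2 change of each gene, H2O2 over control, in set A (circles, 1 library against 1), in set B (squares, 1 library against the mean of 2) and in the fit over both sets (diamonds, bars are SE). Cyp26b1 lay at 1.17 (set A) and 2.04 (set B), and the other 6 genes between -0.54 and 0.36.

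Set beside each other per kilobase of merged exons, the 7 genes kept a wide order of abundance. Aldh1a2 ranked first in all 5 libraries, at 309.1 and 101.8 CPM per kb with H2O2 and 313.4, 97.1 and 84.6 CPM per kb in controls. Cyp26b1 had rank 7 in both libraries of set A, at 1.01 CPM per kb with H2O2 and 0.445 in the control. In set B its rank was 4 with H2O2, at 10.5 CPM per kb, and 6 in both controls, at 2.85 and 2.24. The per-kilobase level of Aldh1a2 over that of Cyp26b1 was 307.4 with H2O2 and 703.8 in the control of set A. In set B this ratio was 9.72 with H2O2, against 34.1 and 37.7 in the controls. Because Cyp26b1 was chosen for its rise, the lower ratio with H2O2 is no separate result. Rara stood above Rarg in all 5 libraries, by 1.51 and 3.50 times with H2O2 and by 1.02, 2.97 and 3.09 times in controls. In control replicate 1 that was 5.22 against 5.10 CPM per kb, too close to be told apart.

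**Figure D3:**
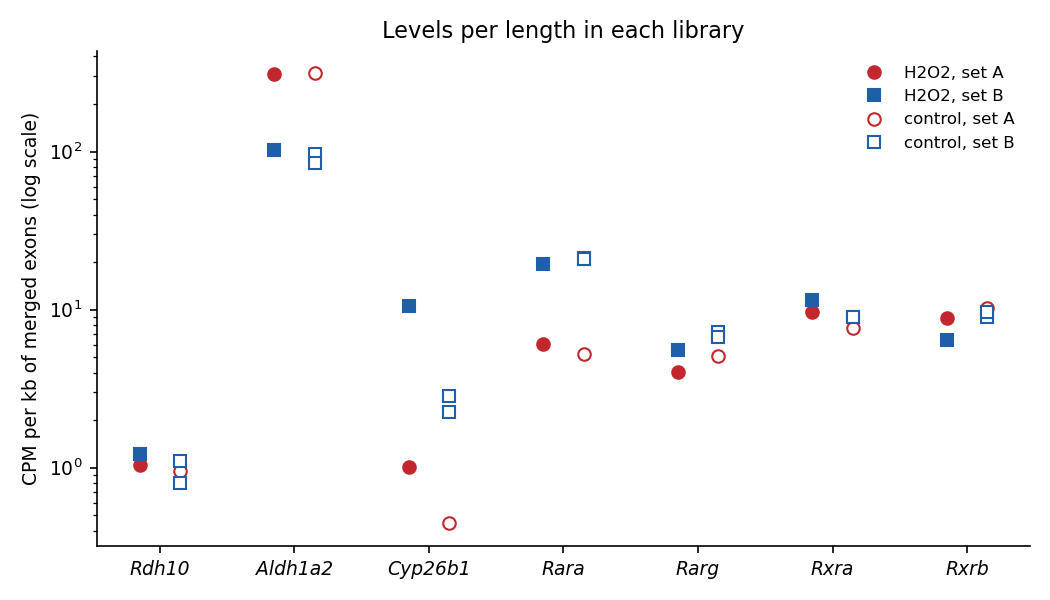
Level of each gene per kilobase of merged exons on a log axis, with H2O2 as filled and control as open symbols, set A as circles and set B as squares. Aldh1a2 lay above every other gene in each library (84.6 to 313.4 CPM per kb), and Cyp26b1 spread from 0.445 to 10.5 CPM per kb.

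For Cyp26b1, Aldh1a2 and Rara the fitted difference between the sets was larger in size than that between the groups. The same held by a small margin for Rarg (log2 -0.45 against -0.34). With the treatment held in the fit, 5 of the 7 members differed between the sets at an adjusted p of at most 0.05, against 36% of all tested genes. Of the 5, 1 was higher in set A and 4 were lower, while 19.1% of all genes were higher and 16.9% lower. Cyp26b1 was 8.08-fold lower in set A (log2 -3.01 ± 0.23, adjusted p = 1.86e-04, edgeR), and only 0.737% of tested genes had a larger difference in either direction. Rara was 3.64-fold lower in set A (log2 -1.86 ± 0.10, adjusted p = 6.14e-05), Rarg lower by 0.45 ± 0.09 (adjusted p = 0.0105) and Rxra by 0.25 ± 0.07 (adjusted p = 0.0313) on the log2 scale. Aldh1a2 was 3.27-fold higher in set A (log2 1.71 ± 0.09, adjusted p = 5.51e-05, edgeR). For Rdh10 (-0.10 ± 0.20, adjusted p = 0.732) and Rxrb (0.27 ± 0.10, adjusted p = 0.0840) the set difference did not pass. Aldh1a2 was higher, and Cyp26b1 with both RAR genes lower, in the libraries with Y-linked transcripts. The Rxra call was lost under 6 of 9 alternatives (adjusted p up to 0.160), while those of Cyp26b1, Aldh1a2, Rara and Rarg held under all 9. The sets are a property of these libraries found in their data, and the sex of the mice and a batch of culture or sequencing cannot be told apart here.

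Of 68 further retinoid pathway genes listed, 64 had a row and 41 passed the filter on low counts. With H2O2, 3 of the 41 rose and 2 fell, 12.2% against 8.54% of all tested genes, and the median log2 change was -0.04 against 0.01 for all genes. Among 5 tested genes of retinol uptake and binding, Rbp4, the retinol carrier protein, rose 1.81-fold (log2 0.86 ± 0.14, adjusted p = 0.0238, edgeR). It stood at 16.9 and 15.2 CPM with H2O2, against 9.13, 9.43 and 7.50 CPM in controls, without overlap. Fabp5, a fatty acid binding protein that also carries retinoic acid, was the most abundant of that list and stood at -0.05 ± 0.08, with a positive sign without the set term.

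Among 11 tested oxidoreductases, Rdh13 rose (log2 0.57 ± 0.13, adjusted p = 0.0451, edgeR), at 18.3 and 14.3 CPM with H2O2 against 13.4, 9.61 and 8.23 CPM in controls. Adh5, the most abundant, stood at 0.18 ± 0.07. Dhrs3, which turns retinal back into retinol and is a known target of retinoic acid, was named after its values were seen. It stood at 98.7 and 38.7 CPM with H2O2 and 98.2, 25.4 and 25.0 CPM in controls (log2 0.33 ± 0.13, adjusted p = 0.170). The other retinal dehydrogenases Aldh1a1, Aldh1a3 and Aldh8a1 summed to 0.473 and 0.130 CPM with H2O2 and 0.697, 1.03 and 0.732 CPM in controls. The hydroxylases Cyp26a1 and Cyp26c1 together did not pass 0.302 CPM in any library. None of these 5 genes passed the filter.

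Among 9 tested partners of RXR, Vdr, the vitamin D receptor and the most abundant of the list, fell by 0.36 ± 0.07 on the log2 scale (adjusted p = 0.0285, edgeR). Its levels were 166.7 and 192.6 CPM with H2O2, against 206.1, 258.1 and 252.3 CPM in controls, without overlap. Among 10 corepressors and coactivators, Ncoa3, a coactivator of nuclear receptors, fell by 0.28 ± 0.07 (adjusted p = 0.0492, edgeR). Ncoa3 levels were 182.7 and 139.9 CPM with H2O2, against 228.5, 165.8 and 166.3 CPM in controls, so the groups overlapped. Ncor1, the most abundant of that list, stood at -0.04 ± 0.07. Among 5 tested genes known to respond to retinoic acid in other systems, Cd38, an ectoenzyme that consumes NAD, rose by 0.42 ± 0.08 (adjusted p = 0.0307). It stood at 80.9 and 198.7 CPM with H2O2, against 64.7, 149.4 and 134.6 CPM in controls. Tgm2, a transglutaminase and the most abundant of that list, stood at -0.07 ± 0.09. Rarb, a receptor gene that is itself a target of retinoic acid, was scarce and stood at -0.90 ± 0.46 (adjusted p = 0.254, edgeR), with levels of 0.709 and 0.0648 CPM with H2O2 and 1.34, 0.121 and 0.122 CPM in controls. Without control replicate 3 or H2O2 replicate 2, none of the 5 calls held, and without control replicate 2 only that of Rbp4 did.

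Between the sets, 22 of the 41 genes differed, 17 higher and 5 lower in set A, or 53.7% against 36% of all tested genes. Hic1, a repressor gene, was higher in set A by 2.34 ± 0.20 on the log2 scale, Dhrs3 by 1.70 ± 0.13 and Tgm2 by 1.13 ± 0.09 (adjusted p of at most 0.000303, edgeR). Rarb, also among the 17, had 12 and 23 counts in set A against 1, 2 and 2 in set B, so it passed the filter through set A alone and its difference is no support. Hic1 was likewise named after its values were seen. Cd38 was lower in set A by 1.21 ± 0.08 (adjusted p = 1.49e-04).

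**Figure D4:**
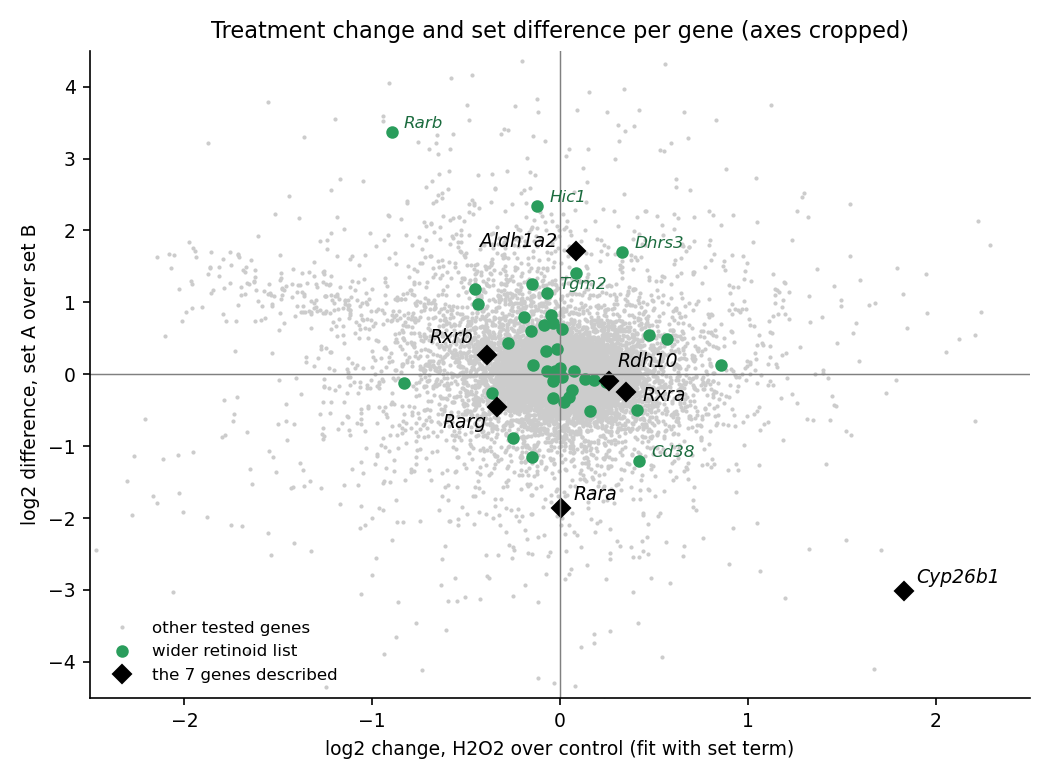
Each point is a tested gene, with its log2 change, H2O2 over control, on the x axis and its log2 difference, set A over set B, on the y axis (both axes cropped). Cyp26b1 lay at 1.83 and -3.01, Rara at 0.0041 and -1.86, and Aldh1a2 at 0.08 and 1.71, with the 41 further retinoid genes mostly near 0 on the x axis.

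The genes whose profile over the 5 libraries was closest to that of Cyp26b1 were Ear6, Slc39a2, Tnfsf14, Igf2bp1 and Amigo2. Their centred log2 levels differed from those of Cyp26b1 by a root mean square of 0.285, 0.345, 0.356, 0.426 and 0.459, among 11174 genes compared. Slc39a2, a zinc importer, was the most abundant of them, at 5.44 and 46.5 CPM with H2O2 and 2.32, 23.3 and 17.6 CPM in controls. Ear6, an eosinophil-associated ribonuclease gene, had only 9 and 3 counts in the H2O2 and control library of set A. Igf2bp1 had 13 and 4 counts there, and Tnfsf14 14 and 7, so the places of these genes rest on few reads.

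The libraries also held transcripts that mark other cells, and their part in these results was not tested. Their counts stand beside 3.93% of all tested genes called higher and 4.61% lower with H2O2, and 19.1% higher and 16.9% lower in set A. Mcpt8, Fcer1a, Mpo, Ctsg, Prg2 and Epx had fewer than 10 counts in both H2O2 libraries and passed the filter through controls, so their calls are no support. Prss34 (9 and 21 counts with H2O2), Ms4a2 (2 and 22) and C1qc (68 and 8) had fewer than 10 counts in 1 H2O2 library. They also needed controls to pass, so their calls with H2O2 are no support either. With these included, 5 of 6 basophil and mast cell markers were called lower with H2O2, and the 6 summed to 4.55 and 14.8 CPM with H2O2, against 17.7, 47.1 and 73.2 CPM in controls. All 6 were called lower in set A. Fcer1a had 1 and 8 counts in set A and passed the filter through set B, so its set call is no support. The 3 eosinophil markers were called lower with H2O2, while Siglecf was called higher and the other 2 lower in set A. Epx had 0 and 4 counts in set A and passed the filter through set B, so its set call is no support. Siglecf made up most of the eosinophil marker sums of 31.5 and 21.2 CPM with H2O2, against 58.3, 33.9 and 31.2 CPM in controls. Of 7 tested neutrophil and precursor markers 2 (Mpo and Ctsg) were called lower with H2O2 and 5 lower in set A. Of the 5, Camp had 2 and 3 counts in set A. It passed the filter through set B, so its set call is no support. Sums over the 8 listed were 71.9 and 308.8 CPM with H2O2 and 66.0, 170.2 and 311.6 CPM in controls. Of 7 tested macrophage markers 1 rose and 2 fell with H2O2, and 3 were called higher and 0 lower in set A. Sums over the 8 listed were 1405 and 1226 CPM with H2O2, against 1238, 1062 and 1033 CPM in controls. Of 7 tested dendritic cell markers 4 fell with H2O2, and 2 were called higher and 3 lower in set A. Sums over the 8 listed were 3569 and 5611 CPM with H2O2, against 4098, 5790 and 5724 CPM in controls. The 8 stromal markers summed to between 1.93 and 2.44 CPM in each library, with Col3a1 at 0 counts throughout. Of the 2 tested, neither was called with H2O2, and Pdgfrb was called lower in set A. Pdgfra stood at 0.769 and 0.713 CPM with H2O2, against 0.349, 0.060 and 0 CPM in controls. It had 13 and 11 counts with H2O2 and 6, 1 and 0 in controls, so it passed the filter through H2O2. Pdgfrb stood at 0.473 and 1.30 CPM with H2O2, against 0.988, 1.87 and 1.83 CPM in controls. The 4 endothelial markers summed to 3.13 and 8.23 CPM with H2O2 and 1.28, 6.34 and 5.49 CPM in controls. Nearly all of it was Kdr, which was called lower in set A, with Tek at 0 counts throughout.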

How the data were processed

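RNA of CD11c-purified mouse dendritic cells was read as DNA nanoballs, per the labels' protocols. The authors deposited estimated counts for each gene without normalization, per the file headers (8.38% to 9.03% of the values are not whole). HISAT, Bowtie2 and the build GRCm38.p6 are named in the submitters' processing notes. The sources used here do not name counter, annotation release, strand setting or filters, so overlapping genes may share reads.

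Symbols came from a RefSeq table of GRCm38.p6, which matched 17520 of 17567 rows. Counts were rounded, filtered with edgeR's filterByExpr (minimum count 10, minimum total 15; 12209 genes left) and scaled with TMM factors. EdgeR's quasi-likelihood F test was fitted on group and set (2 residual degrees of freedom), with Benjamini-Hochberg adjustment over all tested genes and calls at 0.05. The set was read from at least 100 Y-linked counts. SE is the absolute log2 change over the square root of F. CPM use the TMM-scaled library size, except the Y-linked sums, which use the library total. Per-kilobase levels use merged GENCODE M21 exons of the same build. Counting intervals are exact binomial intervals (95%). The fits were tested on simulated data. Versions were DESeq2 1.42.0, limma 3.58.1 and edgeR 4.0.16 under R 4.3.3.

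The members, the lists and the fit with the set term were chosen with earlier results of these data known. Named genes are all members, every called gene and the most abundant tested gene of each further list, and the 5 genes of at least 1 CPM, with an established symbol, nearest to Cyp26b1 in profile. Alternatives were another scaling, DESeq2, limma-voom, no filter, no set term, the replicate block and leaving out each library.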

Additional observations from a re-analysis of the deposited data

Results flagged for a closer look

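The responses of Rara and Aldh1a2, taken as point values, ran in opposite directions in the sets. For Rara the log2 response in set A minus that in set B was 0.34 ± 0.12, because H2O2 stood above the control in set A and below both controls in set B. Its adjusted p was 0.306 (edgeR quasi-likelihood test of the interaction), with an unadjusted p of 0.0314. For Aldh1a2 the difference was -0.18 ± 0.15 (adjusted p = 0.649), with the H2O2 library of set A at 0.986 times its control and that of set B above both of its controls. The counting interval of the Aldh1a2 ratio in set A was 0.962 to 1.01, which spans no change. Neither difference passed the test, and 26.7% of all tested genes showed opposite directions of this kind.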

How the results depend on the processing

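The counts of called genes depended on the fit. Among the 6 members other than Cyp26b1, 1 was called with the set term, and 0 by DESeq2, without the filter, without the set term or with the replicate block in its place. In the further retinoid list 3 rose and 2 fell. DESeq2 gave 2 and 1, no filter 0 and 0, no set term 0 and 0, and the replicate block 1 and 0. Over all genes 480 rose and 563 fell, against 60 and 42 without the filter, 0 and 0 without the set term (edgeR; 853 genes, 6.99%, had an unadjusted p under 0.05), and 220 and 334 with the replicate block. Replicate numbers name samples in accession order and do not pair them by design. In the replicate block, control replicate 3 has no distinct H2O2 library, so it adds nothing to the treatment contrast. That fit and the one without control replicate 3 are therefore not separate alternatives (Cyp26b1 at 1.66 and 1.65). Same-numbered libraries deviated together from their group means across genes (r = 0.795 and 0.695 over 12170 genes), as the sets do. With 2 distinct H2O2 libraries, the deviations of 1 are those of the other with the sign reversed. The 2 values of r are therefore not separate evidence.

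Leaving out 1 library gave 0 to 2 called members, 0 to 6 higher and 0 to 2 lower genes of the further list, and 1 to 1248 higher and 0 to 816 lower genes in all. The Cyp26b1 change then lay between 1.17 and 2.04, and 4 to 5 members differed between the sets. With a library of set A left out, set B alone holds the treatment contrast. With H2O2 replicate 2 left out, set A alone does.

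Changes near 0 turned their sign. Rara stood at -0.0063 with the DESeq2 scaling, -0.00013 by DESeq2, -0.016 by limma-voom and -0.31 without the set term, and between -0.13 and 0.21 with 1 library left out. Without the set term Fabp5 stood at 0.060 and Tgm2 at 0.10. With 1 library left out, Fabp5 lay between -0.19 and 0.066, Ncor1 between -0.11 and 0.012, Aldh1a2 between -0.022 and 0.17, and the set difference of Rdh10 between -0.23 and 0.0021. The interaction by DESeq2 is not given, since DESeq2 returned no adjusted p for 6 of the 7 members. The cause of these changes was not tested.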
